A study of Oryza sativa Japonica Group with 64 samples.

Results

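The genes for light-harvesting chlorophyll-binding proteins described here are 10 of the 55986 genes in the deposited count tables of rice flag leaves and anthers. They were chosen by gene identifier: 3 Lhcb1 genes (CAB2R, LOC_Os01g41710; CAB1R, LOC_Os09g17740; and LOC_Os01g52240), Lhcb2 (LOC_Os03g39610), Lhcb3 (LOC_Os07g37550), CP29 (LOC_Os07g37240), CP26 (LOC_Os11g13890), CP24 (LOC_Os04g38410), Lhca1 (LOC_Os06g21590) and Lhca4 (LOC_Os08g33820). RNA was sequenced from the csa mutant and from wild type (WT), both of japonica rice cultivar 9522 grown in a paddy field, in short-day (SD) and long-day (LD) plots. LD was the natural day of about 14.5 h of light, and SD was 12 h of light, made by a lightproof cover from 18:00 to 6:00. CSA (carbon starved anther, LOC_Os01g16810) encodes a MYB transcription factor that regulates sugar partitioning to anthers, and its mutant is known for male sterility that depends on day length, sterile in SD and fertile in LD. Flag leaves were taken at 6 times over 24 h at anther stage 12 (48 libraries, 12 in each of csa SD, WT SD, csa LD and WT LD), and anthers of the same tillers were taken at 16:00 and 04:00 (16 libraries, 4 in each of the same groups). There were 2 biological replicates for every genotype, photoperiod and time in a tissue. The sources used here do not state the csa allele or whether tillers or plants were pooled.

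Light-harvesting proteins bind chlorophyll a, chlorophyll b and carotenoids in the thylakoid membrane and pass the absorbed energy to the reaction centres. Lhcb1, Lhcb2 and Lhcb3 form the trimeric main antenna of photosystem II, and CP29, CP26 and CP24 are single-protein antennas between those trimers and the photosystem II core. Lhca1 and Lhca4 pair in the antenna belt of photosystem I. The proteins are encoded in the nucleus and imported into chloroplasts, and in green plants their transcripts are known for strong daily rhythms under the control of light and the circadian clock.

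All 10 genes had counts in both tissues and passed the filter on low counts, which left 22095 genes in leaves and 25203 in anthers. Library totals were 18.05 M to 25.96 M counts in anthers and 12.91 M to 20.45 M in leaves, and 3 counts corresponded to 0.116 to 0.166 CPM (counts per 1e6 counts) in anther libraries and to 0.147 to 0.232 CPM in leaf libraries. Levels are given as CPM on library totals scaled by the trimmed mean of M-values (TMM). They are not divided by gene length, so that levels are compared between samples and not between genes. Near-identical Lhcb1 copies can share reads, and the sources used here do not state how such reads were counted, so that the split between CAB2R, CAB1R and LOC_Os01g52240 is uncertain. The CSA transcript itself was counted in csa anthers (87.5 to 244 CPM) and WT anthers (37.9 to 123 CPM), and its level therefore does not check the genotype labels. Genotype labels were instead compared with 8 marker genes, chosen for a csa to WT difference of over 2 on the log2 scale in anthers and in LD leaves. In the 4 leaf libraries labelled SD 12:00, 31 of 32 values lay nearer to the other genotype, against 3 of 160 in the other 20 SD leaf libraries and 0 of 32 in the 4 LD 12:00 leaf libraries. The LD leaf libraries served to choose the markers, so that their 0 of 32 is not a separate check. The 2 libraries labelled csa SD 12:00 and the 2 labelled WT SD 12:00 thus go against their genotype labels, while comparisons of SD with LD average over both genotypes and do not depend on this. Mesophyll and tapetum markers of the labelled tissues were present. The summed level of 4 leaf mesophyll markers (Rubisco small subunit and activase genes) was 460 to 2369 CPM in anther libraries and 21014 to 192461 CPM in leaves. The 7 tapetum markers summed to 896 to 3604 CPM in anther libraries and 0.261 to 4.04 CPM in leaves. The defining marker RAFTIN1 was at 0 in 48 of 48 leaf libraries. The late pollen markers set the tissues apart less well. Averaged over 16:00 and 04:00, 3 of 5 were called higher in anthers than in leaves, and MADS62 and EXPB1 were not called. MADS62 was at 0.396 to 20.9 CPM in leaves and 0 to 21.9 CPM in anther libraries.

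In flag leaves the whole group was a day group. In each photoperiod, every library taken at 08:00, 12:00 or 16:00 was above every library taken at 20:00, 00:00 or 04:00, for 10 of 10 genes. The share of all leaf genes separated in this way was not counted. The highest mean lay at 08:00 for 6 genes and at 12:00 for 4 in SD, and the same counts held in LD. The lowest mean lay at 00:00 for 9 genes in SD and for 8 in LD, and at 20:00 for the rest. The highest mean was 20.3 to 1783 times the lowest in SD (median over genes 437) and 22.6 to 5715 times in LD (median 329). Together the 10 genes took 1.61% to 3.86% of all counts in the 24 leaf libraries of 08:00 to 16:00 and 0.0447% to 0.208% in the 24 libraries of 20:00 to 04:00. TMM factors moved with the same split, at 0.63 to 1.12 in the first and 0.92 to 1.41 in the second, and with total counts in place of TMM the same 10 of 10 genes were called at each dawn and dusk step described below.

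Within the trimeric antenna, Lhcb2 had the widest daily range in SD and CAB1R in LD. The highest mean of CAB1R was 1428 times its lowest in SD and 5715 times in LD, and that of Lhcb2 1783 times in SD and 2371 times in LD. CAB1R averaged 3544 ± 833 CPM at 08:00, 6094 ± 1039 at 12:00, 4591 ± 842 at 16:00, 7.98 ± 3.23 at 20:00, 4.27 ± 2.22 at 00:00 and 24.3 ± 1.0 at 04:00 in SD (standard deviation, n = 4 each). Here and below, n = 4 pools 2 csa and 2 WT libraries, so that the standard deviation includes any difference between genotypes. In LD it averaged 6994 ± 1871, 7383 ± 1145, 2223 ± 613, 3.95 ± 2.44, 1.29 ± 0.60 and 12.4 ± 5.4 CPM at the same times. At its lowest point, LD 00:00, the 4 libraries held 0.58 to 2.04 CPM, above the 3-count floor. Lhcb2 was also lowest at 00:00, with 7378 ± 1573 CPM at 12:00 and 4.14 ± 1.36 at 00:00 in SD, and 6433 ± 2110 CPM at 08:00 and 2.71 ± 0.80 at 00:00 in LD. CAB2R peaked at 12:00 in both photoperiods, at 4393 ± 951 CPM in SD and 2575 ± 448 in LD. LOC_Os01g52240, the other Lhcb1 copy, stayed at 570 ± 57 CPM or less in SD and 467 ± 207 or less in LD. Lhcb3 fell in both photoperiods from 08:00 through 12:00 to 16:00 without overlap between these times. It averaged 4022 ± 726, 2798 ± 285 and 1134 ± 176 CPM in SD and 4267 ± 1144, 2149 ± 269 and 672 ± 225 CPM in LD.

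Among the single-protein antennas and the photosystem I antenna, daily ranges were narrow for CP29, CP24 and Lhca1 and wide for CP26 and Lhca4. The highest mean was 27.1 times the lowest for CP29, 20.3 times for CP24 and 52.5 times for Lhca1 in SD, and 22.6, 28.3 and 104 times in LD. For CP26 it was 509 times in SD and 633 times in LD, and for Lhca4 503 and 530 times. CP29 fell no lower than 241 ± 49 CPM (00:00, SD) and 224 ± 48 CPM (20:00, LD), with 6526 ± 443 CPM in SD and 5063 ± 1807 CPM in LD at its 08:00 peak. CP24 had the narrowest range in SD, between 87.0 ± 3.5 CPM at 20:00 and 1771 ± 197 CPM at 12:00. In LD the lowest day library of CP24 (388 CPM) was only 1.35 times its highest night library (288 CPM). CP26 had 9431 ± 982 CPM at 08:00 and 18.5 ± 4.5 at 00:00 in SD, and 6826 ± 1906 and 10.8 ± 4.9 CPM in LD, and its 08:00, 12:00 and 16:00 libraries did not overlap in either photoperiod. Lhca4 averaged 7271 ± 1219 CPM at 08:00 in SD and 4844 ± 1324 in LD, with 14.5 ± 2.8 and 9.13 ± 2.03 CPM at 00:00. Lhca1, its partner, was at 3196 ± 1104, 2579 ± 294 and 2313 ± 277 CPM at 08:00, 12:00 and 16:00 in SD and at 3675 ± 754, 4714 ± 1161 and 3744 ± 742 CPM in LD, and these day times overlapped in each photoperiod.

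**Figure D1:**
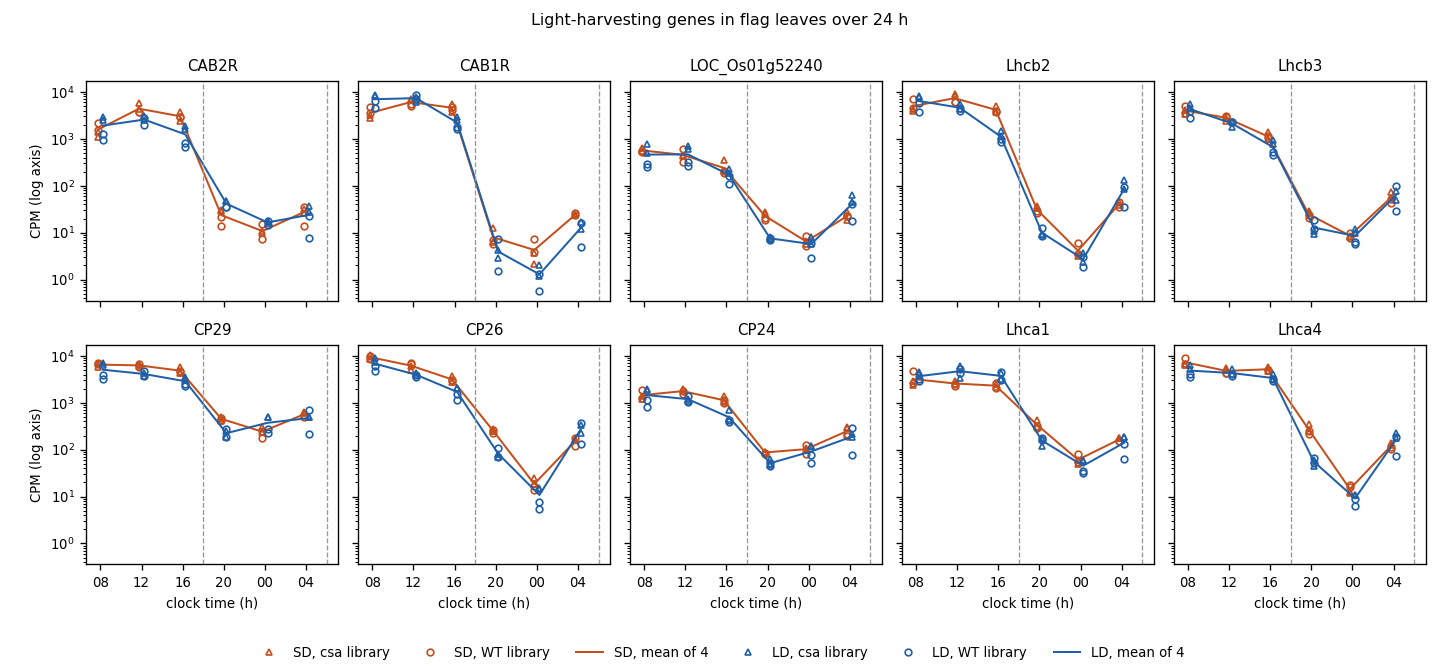
CPM (log axis) of the 10 light-harvesting genes in flag leaves against clock time. Symbols are single libraries (triangles csa, circles WT), lines are means of the 4 libraries of a time in SD (orange) and LD (blue), and dashed lines mark when the SD cover went on (18:00) and came off (6:00). In each panel the libraries of 08:00 to 16:00 lie above all libraries of 20:00 to 04:00 of the same photoperiod, by 1.35 times at the least (CP24 in LD).

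All 10 genes changed within one sampling step at both ends of the night, and levels also moved within the night. CP26 in LD was at 5.48 to 15.2 CPM at 00:00 and 133 to 376 CPM at 04:00. In SD it was at 225 to 277 CPM at 20:00 and 13.8 to 24.5 CPM at 00:00. The 04:00 mean was above the 00:00 mean for all 10 genes in both photoperiods. From 20:00 to 00:00 the means fell, except for CP24 in both photoperiods and CP29 in LD. At 08:00 against 04:00, 10 of 10 genes were higher in SD, by 2.55 (CP24) to 7.17 (CAB1R) on the log2 scale, and 10 of 10 in LD, by 2.84 (CP24) to 9.12 (CAB1R), where 26.2% and 23% of all leaf genes were called higher (edgeR's quasi-likelihood test, Benjamini-Hochberg adjusted p below 0.05 over all genes). At 20:00 against 16:00, 10 of 10 were lower in SD, with log2 fold changes of -2.77 (Lhca1) to -9.20 (CAB1R), and 10 of 10 in LD, with -3.24 (CP24) to -9.10 (CAB1R), beside 26.4% and 24.7% of all genes called lower. The largest adjusted p over these values was 6e-11. The median over the 10 genes at the dawn step was 5.87 in SD and 4.82 in LD, and over all genes -0.08 and -0.07. The 10 genes of the photosystem cores, listed as nuclear subunits of the complexes that the antennas feed (1 of the 10 identifiers could be matched to its name), rose at dawn in 10 of 10 cases in each photoperiod, with a median log2 change of 1.34 in SD and 1.46 in LD. A cosine with a period of 24 h was called for 10 of 10 genes in SD and 10 of 10 in LD, but this hardly sets them apart, since 82.1% and 82% of all genes were called. The fitted swing from trough to peak had a median of 9.32 (log2) over the 10 genes in SD and 8.82 in LD, against 1.3 and 1.34 over all genes. A single cosine draws a plateau followed by a steep step poorly, and the fitted swings exceeded the ranges of the means.

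The genes moved closely together in leaves. Pearson's r of log2 CPM over the 24 leaf group means was between 0.885 (Lhca1 and CP24) and 0.989 over the 45 pairs of genes, with a median of 0.963; the groups share the same 6 times, so this describes a shared daily course. Over the 8 anther group means, r was between 0.457 (LOC_Os01g52240 and CAB1R) and 0.991, with a median of 0.898. Among 13758 other leaf genes with a mean of at least 5 CPM, the 5 whose course over the 24 groups was most like the mean of the 10 were LOC_Os06g47940 (r = 0.984), LOC_Os04g41560 (0.981), LOC_Os07g38960 (0.978), LOC_Os01g48444 (0.978) and LOC_Os06g21600 (0.976). LOC_Os07g38960 stood in the list of other antenna genes, and the files give no names for any of the 5.

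Most calls for day length in leaves fell at 16:00 and 20:00. At 16:00, 8 of 10 genes were higher in SD than in LD and Lhca1 was lower, and at 20:00 9 were higher and CAB2R was lower. The share of all leaf genes called in either direction was 39.4% at 16:00 and 32.3% at 20:00. At the other times fewer were called. Lhca4 was higher and CAB1R lower at 08:00, where 36.6% of all genes were called, and 5 were higher and Lhca1 lower at 12:00, beside 45.3%. At 00:00, 3 were higher (CAB1R, CP26 and Lhca4) and CP29 was lower, beside 39.4%, and at 04:00 CAB1R was higher and LOC_Os01g52240, Lhcb2 and CP26 were lower, beside 38%. The counts at 08:00, 12:00, 00:00 and 04:00 are near or below these background shares. Averaged over the 6 times, 8 genes were higher in SD and none lower, with 29.8% of all genes called higher; CAB2R (log2 0.14 ± 0.10 SE, adjusted p = 0.251) and Lhca1 (0.02 ± 0.08, adjusted p = 0.892) were not called.

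Lhcb2 had the widest difference at 16:00. It was at 5038 and 3784 CPM in csa and 3780 and 4018 in WT in SD leaves, against 1146 and 1461 CPM in csa and 979 and 864 in WT in LD leaves. The SD and LD libraries did not overlap, and the log2 fold change was 1.92 ± 0.22 (SE, adjusted p = 4.42e-08). CAB2R was at 3724, 2442, 2985 and 2980 CPM in SD leaves, against 1838, 1639, 827 and 677 CPM in LD leaves at 16:00, again without overlap (log2 1.41 ± 0.24, adjusted p = 2.18e-05). CP24 (1.22 ± 0.22), CAB1R (1.08 ± 0.27), CP26 (0.92 ± 0.21), Lhcb3 (0.81 ± 0.22), CP29 (0.77 ± 0.20) and Lhca4 (0.63 ± 0.18) also rose, and LOC_Os01g52240 (0.50 ± 0.22, adjusted p = 0.0714) was not called. Lhca1 went the other way, with 2489, 2117, 2039 and 2607 CPM in SD leaves, against 3163, 4344, 3043 and 4425 CPM in LD leaves. All 4 SD libraries lay below the 4 LD libraries (log2 -0.69 ± 0.20, adjusted p = 0.00647), and at 12:00 the fold change of Lhca1 was -0.87 ± 0.20 (adjusted p = 0.000678).

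At 20:00 the SD plants had been under the cover since 18:00. Lhca4 was at 353, 253, 251 and 215 CPM in SD leaves, against 59.6, 44.8, 66.2 and 51.5 CPM in LD leaves (log2 2.26 ± 0.19, adjusted p = 2.85e-10). The lowest SD library was over 3 times the highest LD library. CP26 was at 277, 247, 225 and 262 CPM in SD leaves and 79.2, 68.2, 109 and 69.8 CPM in LD leaves (log2 1.64 ± 0.21), and Lhcb2 at 36.9, 33.3, 28.7 and 25.7 CPM in SD leaves and 9.09, 9.46, 8.57 and 12.6 CPM in LD leaves (1.64 ± 0.23). CAB2R, at 29.3, 30.2, 21.1 and 14.0 CPM in SD leaves and 46.8, 48.4, 35.0 and 35.6 CPM in LD leaves, was the one gene below LD, without overlap (log2 -0.84 ± 0.24, adjusted p = 0.00826). All of these 20:00 values are small against the afternoon levels of the same genes. By 04:00 Lhcb2 was lower in SD, at 38.0, 44.9, 35.4 and 44.7 CPM, against 86.9, 131, 92.8 and 34.4 CPM in LD leaves (log2 -1.03 ± 0.22), and 1 LD library, WT replicate 2, lay below the SD libraries. Of the 10 genes, Lhcb2 was the one whose fitted cosine differed between SD and LD (adjusted p = 0.00237), beside 32.4% of all genes, and 5 genes were without the 4 SD 12:00 libraries, 2 with total count scaling and 10 with no filter. At 16:00 and 20:00 the calls lost without 1 library were Lhca1 at 16:00 (replicate 2 of csa LD or WT LD), CAB2R at 20:00 (WT SD replicate 2), CAB1R at 20:00 (csa LD replicate 1, csa SD replicate 2, WT LD replicate 1 or WT SD replicate 2) and CP24 at 20:00 (csa LD replicate 1). At 04:00 LOC_Os01g52240 and CP26 were lost without WT LD replicate 1 and CAB1R without WT LD replicate 2, and at 00:00 CP29 was lost without csa SD replicate 2, WT LD replicate 1 or WT SD replicate 2 and Lhca4 without WT LD replicate 2. CP24 at 12:00 was lost without any 1 of 9 libraries. The 12:00 count of 6 genes fell to 2 without WT LD replicate 2 and to 3 without csa LD replicate 1 of that time, the 08:00 count of 2 rose to 4 without either WT LD 04:00 replicate, and the 00:00 count of 4 rose to 7 without WT LD 04:00 replicate 1. With no filter on low counts the 08:00 count was 6 and the 00:00 count 7, and with total count scaling the 08:00 count was 4.

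**Figure D2:**
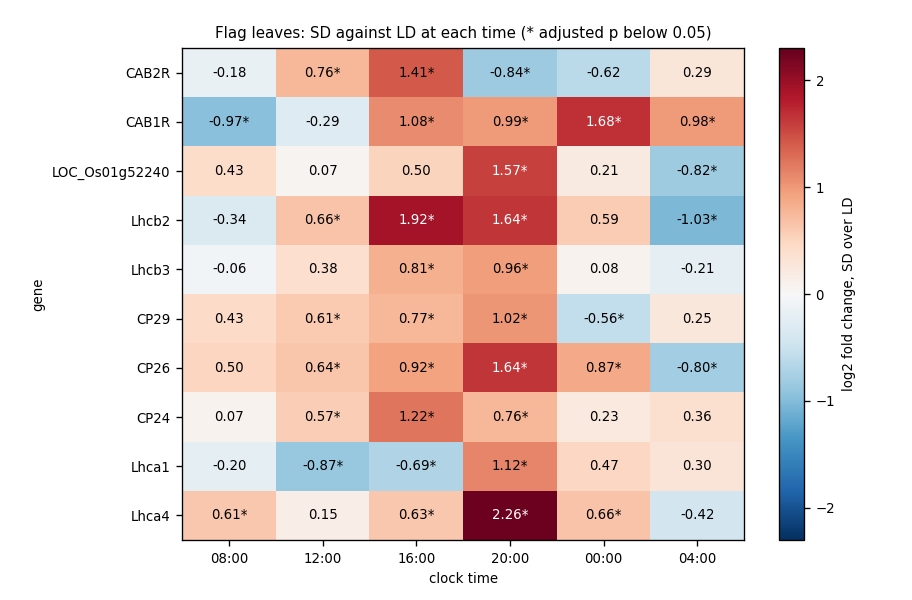
Log2 fold change of SD over LD for the 10 light-harvesting genes (rows) at the 6 times (columns) in flag leaves, each from 4 SD and 4 LD libraries. Positive values (red) are higher in SD, and asterisks mark an adjusted p below 0.05. Red fills the 16:00 and 20:00 columns except for Lhca1 at 16:00 (-0.69) and CAB2R at 20:00 (-0.84).

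Other genes of the pathway showed part of this pattern. Of 13 chlorophyll synthesis genes, 8 were higher and none lower in SD leaves at 16:00 (median log2 0.64, all genes -0.01), and at 20:00 5 were higher and 3 lower (0.23). CAO1, the oxygenase that makes chlorophyll b, was higher at 16:00 by 1.94 ± 0.13, and the protochlorophyllide reductases PORA and PORB by 2.28 ± 0.25 and 1.25 ± 0.17 (log2). GLK1, a transcription factor that in several plants activates antenna and chlorophyll genes, was at 78.9 ± 6.9 CPM in SD leaves and 37.2 ± 3.1 CPM in LD leaves at 16:00 (log2 1.08 ± 0.13) and at 21.3 ± 2.2 CPM in SD and 46.8 ± 7.6 CPM in LD at 20:00 (-1.13 ± 0.13; ± is the standard deviation for CPM, n = 4 each). GLK1 was thus above LD at 16:00 and below LD at 20:00, while 9 of 10 antenna genes were above LD at 20:00. Of the 10 photosystem core genes, 6 were higher at 16:00 and 2 at 20:00 in SD, with medians of 0.50 and 0.12. The 6 other genes of the antenna family had 2 higher and 2 lower at 16:00. Of 5 chlorophyll breakdown genes, 2 were higher and 1 lower at 20:00; NOL and NYC1, the chlorophyll b reductases, were higher by 1.18 ± 0.10 and 0.77 ± 0.08. Of the 4 leaf mesophyll markers, 3 were higher in SD leaves at 16:00 and 3 at 20:00, with median log2 changes of 1.05 and 0.999, beside 0.87 and 1.07 for the antenna genes. Their sums were at 57701 to 65885 CPM in SD leaves and 27710 to 46912 CPM in LD leaves at 16:00, and at 45842 to 52204 CPM in SD leaves and 21014 to 33116 CPM in LD leaves at 20:00, without overlap at either time, and their part in the antenna values was not tested.

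No difference between csa and WT was called in SD leaves. None of the 10 genes passed the test over the 6 times in SD (log2 fold changes between -0.06 and 0.15, smallest adjusted p = 0.836, 0 below an unadjusted p of 0.05, 0 by DESeq2, and 0 without the 4 libraries labelled SD 12:00), where 0.493% of all leaf genes were called. In LD leaves, 2 genes were higher in csa, both of them Lhcb1 genes, beside 1.79% of all genes called higher. CAB2R was at 2889 and 2564 CPM in csa and 1264 and 958 CPM in WT at 08:00, at 2529 and 3052 CPM in csa and 2733 and 1985 CPM in WT at 12:00, and at 1838 and 1639 CPM in csa and 827 and 677 CPM in WT at 16:00. The genotypes were apart at 08:00 and 16:00 and overlapped at 12:00, and the log2 fold change over the 6 times was 0.72 ± 0.14 (adjusted p = 0.00174). LOC_Os01g52240 was at 792 and 503 CPM in csa and 253 and 298 CPM in WT at 08:00, and at 599 and 687 CPM in csa and 267 and 316 CPM in WT at 12:00 (log2 0.76 ± 0.14, adjusted p = 0.000826). The other 8 genes had fold changes of 0.25 (Lhcb3) to 0.44 (CP24) that were not called, 4 of them with adjusted p between 0.0551 (CP24) and 0.0564 (CP29). The count of 2 rose to 6 with the replicate number as a block, to 7 by DESeq2, to 10 with no filter and to 9 without WT LD 04:00 replicate 1, a library pair in which CP29 was at 688 and 214 CPM. It was 4 without csa LD 04:00 replicate 1 or WT LD 12:00 replicate 1, and 5 without WT LD 00:00 replicate 1 or WT LD 20:00 replicate 1. In the same comparison 10 of 13 chlorophyll synthesis genes and 4 of 4 leaf mesophyll markers were higher in csa; the summed mesophyll markers were at 23786 to 192461 CPM (median 87622) in csa LD leaves and 21014 to 107226 CPM (median 53190) in WT LD leaves, and their part in the antenna values was not tested. PORB (0.52 ± 0.10) and CHLI, a magnesium chelatase subunit (0.41 ± 0.07), were among them. The difference between the genotype effects in SD and LD was called for none of the 10 genes (log2 -0.18 to -0.61, 5 below an unadjusted p of 0.05, smallest adjusted p = 0.193), beside 0.294% of all genes; it was called for 2 without WT LD 04:00 replicate 1 and for 4 with no filter.

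In anthers the genes took a smaller share of counts than in leaves of 08:00 to 16:00. Of the 10, 8 were higher in the afternoon on average over the groups. The 10 genes took 0.358% ± 0.068 of all counts at SD 16:00, 0.0767% ± 0.0461 at SD 04:00, 0.151% ± 0.045 at LD 16:00 and 0.102% ± 0.044 at LD 04:00 (standard deviation, n = 4 each). Of the 10 genes, 8 were higher at 16:00 than at 04:00 over both genotypes and photoperiods, beside 10.7% of all anther genes. CAB2R was at 1140 and 1346 CPM at 16:00 in csa SD anthers and 191 and 139 CPM at 04:00, and its log2 fold change over all groups was 2.72 ± 0.17 (adjusted p = 4.4e-07). CAB1R (2.67 ± 0.15), Lhcb3 (1.91 ± 0.14), Lhca1 (1.77 ± 0.16), Lhca4 (1.57 ± 0.13), CP26 (1.37 ± 0.13), CP29 (1.21 ± 0.14) and Lhcb2 (0.75 ± 0.16) were also higher. LOC_Os01g52240 (0.20 ± 0.17, adjusted p = 0.474) and CP24 (0.43 ± 0.15, adjusted p = 0.071) were not called. The average covers opposite directions for 3 genes: in SD the 16:00 mean was above the 04:00 mean for 10 of 10 genes in both genotypes, and in LD for 7 of 10, with Lhcb2, CP24 and LOC_Os01g52240 lower at 16:00 by their means in csa and in WT. Lhcb2 was at 139 and 148 CPM at 16:00 and 213 and 279 CPM at 04:00 in csa LD anthers, and at 128 and 61.0 CPM at 16:00 and 139 and 100 CPM at 04:00 in WT LD anthers. In csa LD anthers the 2 times were apart for Lhcb2, and in WT LD anthers they overlapped. The regulators and pigment genes did not share this: GLK1 was lower at 16:00 than at 04:00 by 1.12 ± 0.08 and CAO1 by 1.29 ± 0.09 on the log2 scale. Of 10 photosystem core genes 6 were higher, and of 13 chlorophyll synthesis genes 2 were higher and 6 lower.

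**Figure D3:**
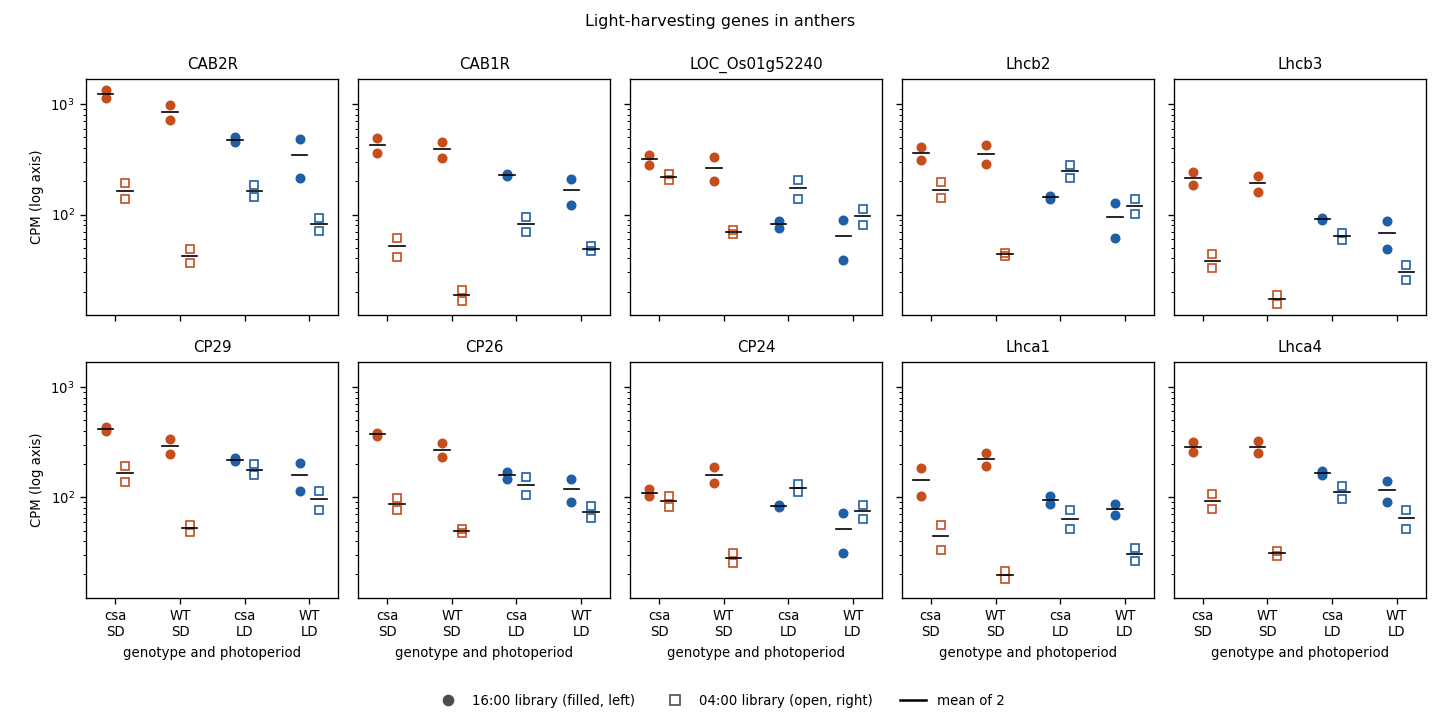
CPM (log axis) of the 10 light-harvesting genes in single anther libraries of csa and WT in SD (orange) and LD (blue). Filled circles are 16:00 and open squares 04:00 libraries, and bars are means of 2. In WT SD the 04:00 libraries lie lowest of all groups for 9 of the 10 genes by their mean, and for LOC_Os01g52240 the WT LD 16:00 mean is lower.

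Antenna transcripts were higher in csa than in WT anthers, and the calls by time lay at 04:00. Averaged over both times, 9 of 10 genes were higher in csa in SD and none lower, beside 25.8% of all genes called higher. CAB2R (1.25 ± 0.23), CP29 (1.08 ± 0.20) and Lhcb2 (0.98 ± 0.23) had the largest log2 fold changes, and Lhca1 (0.26 ± 0.22, adjusted p = 0.353) was not called. The call of CP24 (adjusted p = 0.0468) was lost without any 1 of 14 of the 16 libraries, that of Lhcb3 without replicate 1 of any SD group, and that of CP26 without WT SD 16:00 replicate 1. In LD 9 of 10 were higher and none lower, with fold changes of 0.61 to 0.82, beside 18.7%; LOC_Os01g52240 (0.59 ± 0.24, adjusted p = 0.0791) was not called. The LD count rested on single libraries, since it fell to 0 without WT LD 04:00 replicate 2, to 1 without csa LD 04:00 replicate 2, to 2 without WT LD 16:00 replicate 2 and to 4 without csa LD 16:00 replicate 2. A difference of the genotype effect between SD and LD was called for none of the 10 genes by edgeR (log2 -0.41 to 0.53, smallest adjusted p = 0.272, 0 below an unadjusted p of 0.05, 0 by DESeq2 and 1 with no filter), beside 17.8% of all genes. That difference was averaged over both times and was not tested at either time alone. Whether csa anthers hold more green cells or more of this RNA per cell cannot be told apart in whole anthers.

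At 04:00 in SD, 10 of 10 genes were higher in csa, beside 20.8% of all genes, and at 16:00 none was called, beside 41.9%. CAB2R was at 191 and 139 CPM in csa anthers and 48.7 and 36.4 CPM in WT anthers at 04:00 (log2 1.96 ± 0.34, adjusted p = 0.00108). Lhcb2 was at 196 and 141 CPM in csa anthers and 42.5 and 45.1 CPM in WT anthers (1.94 ± 0.33, adjusted p = 0.000984). For both genes each csa library was above each WT library. CP24 was at 103 and 81.0 CPM in csa anthers and 25.5 and 31.1 CPM in WT anthers (1.70 ± 0.32), and Lhca4, which had the smallest p, at 108 and 77.6 CPM in csa anthers and 32.8 and 29.3 CPM in WT anthers (1.58 ± 0.26, adjusted p = 0.000863). The smallest change was that of CP26, at 99.0 and 76.1 CPM in csa anthers and 51.8 and 47.4 CPM in WT anthers (0.82 ± 0.25, adjusted p = 0.0209). CP26 was lost without csa replicate 1 or either WT replicate, and Lhca1 and Lhcb3 without replicate 1 of csa or WT. In no gene did the csa and WT libraries of SD 04:00 overlap. With 2 against 2 libraries this can arise by chance, and its share over all genes was not counted. At 16:00 in SD the log2 fold changes were between -0.64 ± 0.31 (Lhca1, adjusted p = 0.12) and 0.55 ± 0.32 (CAB2R, adjusted p = 0.193), with 0 below an unadjusted p of 0.05; DESeq2 called 1 gene, 4 were called with no filter, and 1 was called without csa SD 16:00 replicate 1 or either WT LD 16:00 replicate. The difference between the genotype effects at 16:00 and at 04:00 was itself called for 8 of 10 genes, beside 16.5% of all genes called in that direction. It was -2.24 ± 0.44 for CP24, -1.93 ± 0.45 for Lhcb2, -1.79 ± 0.45 for Lhca1 and -1.41 ± 0.46 for CAB2R, and it was not called for Lhcb3 (-1.01 ± 0.38, adjusted p = 0.0599) and CP26 (-0.35 ± 0.35, adjusted p = 0.465). That count was 4 without csa SD 04:00 replicate 1, csa SD 16:00 replicate 2 or WT SD 16:00 replicate 2, and 5 without csa SD 16:00 replicate 1 or either WT SD 04:00 replicate.

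In LD the contrast at 04:00 ran the same way, and its count depended on single libraries. Higher in csa at 04:00 were 5 genes (Lhcb2, Lhcb3, CP29, CP26 and Lhca1), beside 7.97% of all genes, and the 10 fold changes lay between 0.71 (CP24) and 1.08 (Lhcb3), each with an unadjusted p below 0.05. Lhcb3 was at 59.2 and 68.7 CPM in csa anthers and 34.8 and 25.7 CPM in WT anthers (adjusted p = 0.0237). Leaving out any 1 of the 16 anther libraries moved this count, to between 0 and 10, and it was 1 with the replicate number as a block, 3 with RLE scaling, 8 with total count scaling or by DESeq2 and 10 with no filter. At 16:00 in LD none was called (log2 0.28 to 0.69, smallest adjusted p = 0.137, 1 below an unadjusted p of 0.05, and 0 by DESeq2), beside 10.6% of all genes called higher; without WT LD 16:00 replicate 1 there were 8, and with no filter 3. The 2 WT LD 16:00 libraries stood apart from each other, with CAB2R at 484 and 213 CPM and CP24 at 72.5 and 31.4 CPM.

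**Figure D4:**
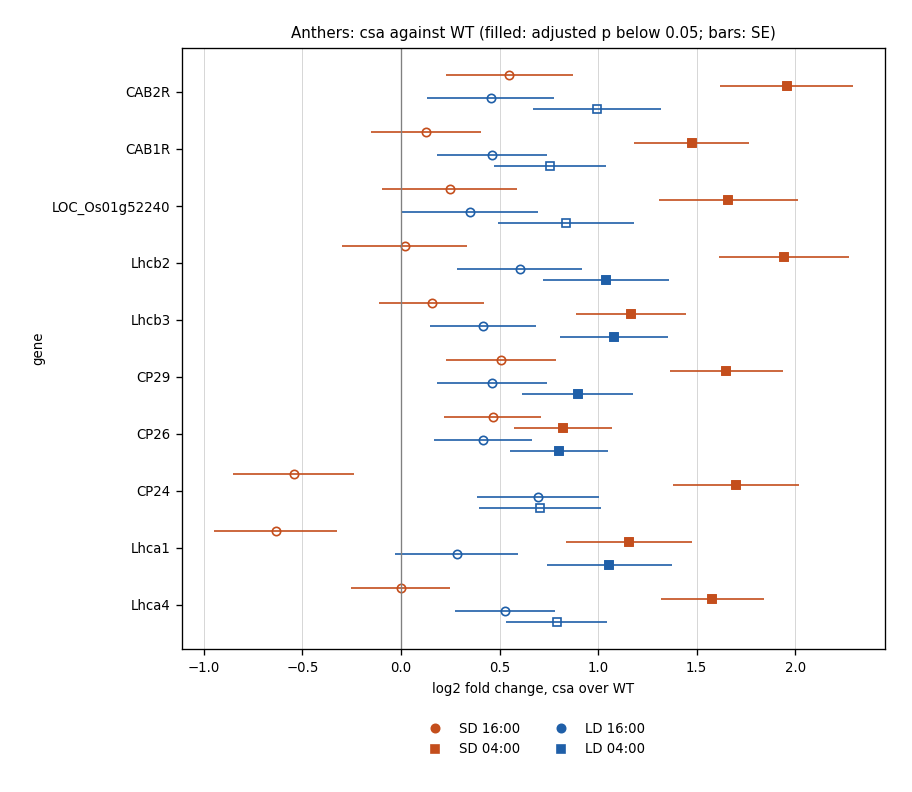
Log2 fold change of csa over WT in anthers (horizontal axis, bars are SE) for the 10 light-harvesting genes, in SD (orange) and LD (blue) at 16:00 (circles) and 04:00 (squares), each from 2 csa and 2 WT libraries. Filled symbols have an adjusted p below 0.05. The SD 04:00 values lie between 0.82 and 1.96 and are all filled, and no 16:00 value is filled.

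Related genes and cell markers moved in the same libraries. At SD 04:00, 10 of 10 photosystem core genes were higher in csa (median log2 1.69, antenna genes 1.62, all genes 0.00), with PsaH, a photosystem I subunit, at 1.83 ± 0.25. Of 13 chlorophyll synthesis genes 9 were higher and 1 lower (CHLD, a magnesium chelatase subunit, -0.83 ± 0.14), and PORA was higher by 1.97 ± 0.34. GLK2, the second GLK factor, was higher by 1.42 ± 0.26. The 4 leaf mesophyll markers were higher in csa in 4 of 4 cases, with summed levels of 1648 to 2369 CPM in csa anthers and 460 to 583 CPM in WT anthers at SD 04:00. At SD 16:00, where no antenna gene was called, none of the 4 was called and the sums were 1162 to 1717 CPM in csa and 808 to 1396 CPM in WT. Tapetum markers were lower in csa in SD for 6 of 7 (RAFTIN1, a tapetum-secreted protein of the pollen wall, by a log2 change of -1.50 ± 0.14), and late pollen markers for 4 of 5, summing to 1.14 to 1.62 CPM in csa SD anthers and 25.7 to 146 CPM in WT SD anthers. At SD 16:00 and at SD 04:00, 5 of 7 tapetum and 4 of 5 late pollen markers were called lower in csa. In csa SD anthers the summed mesophyll markers averaged 1439 CPM at 16:00 and 2008 CPM at 04:00. The part of the 3 marker lists in the antenna result was not tested. In LD, over both times, none of the 4 mesophyll markers was called between csa and WT, while 5 of 7 tapetum markers and 5 of 5 late pollen markers were lower in csa and 1 tapetum marker was higher. The summed mesophyll markers were at 622 to 1788 CPM in csa LD anthers and 904 to 1367 CPM in WT LD anthers, and the late pollen markers at 2.17 to 84.6 CPM in csa LD anthers and 172 to 520 CPM in WT LD anthers.

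Day length had opposite effects on WT anthers at 16:00 and at 04:00. At 16:00, 10 of 10 genes were higher in SD than in LD, beside 9.5% of all genes called higher. At 04:00, 7 of 10 were lower in SD and none higher, beside 16.9% called lower. CAB2R was at 725 and 974 CPM in SD and 484 and 213 CPM in LD at 16:00 (log2 1.29 ± 0.33, adjusted p = 0.0207), and at 48.7 and 36.4 CPM in SD and 92.6 and 71.4 CPM in LD at 04:00 (-0.95 ± 0.33, adjusted p = 0.044). Lhcb2 was at 287 and 424 CPM in SD and 128 and 61.0 CPM in LD at 16:00 (1.91 ± 0.33), and at 42.5 and 45.1 CPM in SD and 139 and 100 CPM in LD at 04:00 (-1.45 ± 0.32). SD and LD libraries did not overlap at either time for these 2 genes. The widest 16:00 difference was that of LOC_Os01g52240, at 202 and 332 CPM in SD and 88.8 and 39.0 CPM in LD (2.06 ± 0.36, adjusted p = 0.00535). LOC_Os01g52240 (-0.48 ± 0.35, adjusted p = 0.302), CP26 (-0.58 ± 0.25, adjusted p = 0.0891) and Lhca1 (-0.62 ± 0.32, adjusted p = 0.153) were not called at 04:00. With total count scaling the 04:00 count was 4, since CAB2R, Lhcb3 and CP29 were not called (adjusted p between 0.0585 and 0.0708).

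The difference between the 16:00 and 04:00 effects in WT was called for 10 of 10 genes, with log2 values of 1.75 ± 0.40 (CP29) to 3.36 ± 0.46 (Lhcb2), beside 13.1% of all genes called in that direction. All 10 calls held without any 1 library. The 16:00 count of 10 fell to 3 without WT LD 16:00 replicate 2 and to 5 without WT SD 16:00 replicate 2, the 16:00 call of CAB2R was lost also without WT SD 16:00 replicate 1, the 16:00 call of CP29 and the 04:00 call of CAB2R were each lost without any 1 of 11 of the 16 libraries, and the 04:00 count of 7 fell to 3 without WT LD 04:00 replicate 1 or WT SD 04:00 replicate 2 and to 4 without WT SD 04:00 replicate 1. Averaged over the 2 times the opposite effects left 1 gene called in WT (LOC_Os01g52240, 0.79 ± 0.24, adjusted p = 0.0312), beside 28.9% of all genes. That call was lost without either WT SD 04:00 replicate, WT LD 04:00 replicate 2 or replicate 2 of WT SD or WT LD 16:00, and 5 genes were called without WT LD 16:00 replicate 1 and 4 with no filter. The 10 photosystem core genes did likewise in WT, with 10 of 10 higher at 16:00, 6 lower at 04:00 and 10 of 10 called for the difference (median 2.33, antenna genes 2.34, all genes 0.00). The summed mesophyll markers were at 808 to 1396 CPM in SD and 904 to 1118 CPM in LD at 16:00, and at 460 to 583 CPM in SD and 1059 to 1367 CPM in LD at 04:00, and their part was not tested.

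In csa anthers differences between SD and LD were called at 16:00 and not at 04:00. Higher in SD at 16:00 were 5 genes (CAB2R, LOC_Os01g52240, Lhcb2, Lhcb3 and CP26), beside 4.37% of all genes called higher. LOC_Os01g52240 was at 350 and 284 CPM in SD and 87.8 and 74.9 CPM in LD (log2 1.96 ± 0.36, adjusted p = 0.00773), and CP26 at 384 and 363 CPM in SD and 147 and 170 CPM in LD (1.24 ± 0.25, adjusted p = 0.0122). The 5 became 1, 2, 3 and 2 without csa LD replicates 1 and 2 and csa SD replicates 1 and 2 of 16:00 in turn, and 8 without either WT LD 16:00 replicate; DESeq2 called 8, and 9 were called with no filter. At 04:00 none was called (log2 -0.74 to 0.34, smallest adjusted p = 0.162, 3 below an unadjusted p of 0.05, 0 by DESeq2 and 5 with no filter), beside 0.139% of all genes. The difference between the 2 times had the WT sign in 10 of 10 genes (0.80 to 1.96) and was called for none by edgeR (smallest adjusted p = 0.0708, 9 below an unadjusted p of 0.05), beside 0.0397% of all genes called in that direction; DESeq2 called 6, 10 were called with no filter, and 2 were called without either WT LD 16:00 replicate. Over both times 1 gene was called in csa, again LOC_Os01g52240 (1.15 ± 0.25, adjusted p = 0.0116), beside 15.5% of all genes. It was lost without csa LD 04:00 replicate 1, and 2 genes were called by DESeq2 or without either WT LD 16:00 replicate and 5 with no filter. Whether the SD effect differs between csa and WT was tested only as the genotype by photoperiod contrast above, averaged over both times. At 16:00 or 04:00 alone it was not tested, and opposite differences at the 2 times would cancel in the average.

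Anthers and leaves of the same tillers were compared at the 2 shared times in 1 fit over 32 libraries, in which 26422 genes were tested. At 16:00, 10 of 10 genes were lower in anthers, beside 37.3% of all genes called lower, and the anther mean was between 0.0296 (Lhca1) and 0.582 (LOC_Os01g52240) of the leaf mean. Lhca1 was at 58.5 to 212 CPM (median 82.2) in anthers and 2485 to 5421 CPM (median 3486) in leaves (n = 8 each; log2 -5.16 ± 0.19). Anther libraries lay below all leaf libraries for 8 genes, and those of CAB2R and LOC_Os01g52240 overlapped with leaves. The share of all genes without such overlap was not counted. At 04:00, 4 genes were higher in anthers than in leaves and 6 lower, beside 86.6% of all genes called in either direction. Of the 26422 genes, 13186 were called higher and 9691 lower, so that 4 of 10 is not above the share of all genes called higher. CAB2R was at 30.4 to 154 CPM (median 94.6) in anthers and 10.01 to 45.9 CPM (median 34.4) in leaves (log2 1.41 ± 0.21), and LOC_Os01g52240 at 55.5 to 188 CPM (median 106) in anthers and 22.7 to 79.3 CPM (median 30.1) in leaves (1.48 ± 0.20). CAB1R (0.77 ± 0.18) and Lhcb2 (0.47 ± 0.18, adjusted p = 0.0234) were the other 2, beside a median of 0.39 over all genes. The ranges of anthers and leaves overlapped for these 4, and Lhcb2 was lost without any 1 of 4 leaf libraries of 04:00 (replicate 1 of csa SD, WT SD or csa LD, or replicate 2 of WT LD). CP29 (-2.81 ± 0.19), Lhca1 (-2.62 ± 0.17), CP24 (-2.23 ± 0.21), CP26 (-1.93 ± 0.18), Lhca4 (-1.63 ± 0.16) and Lhcb3 (-1.42 ± 0.20) were lower in anthers.

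**Figure D5:**
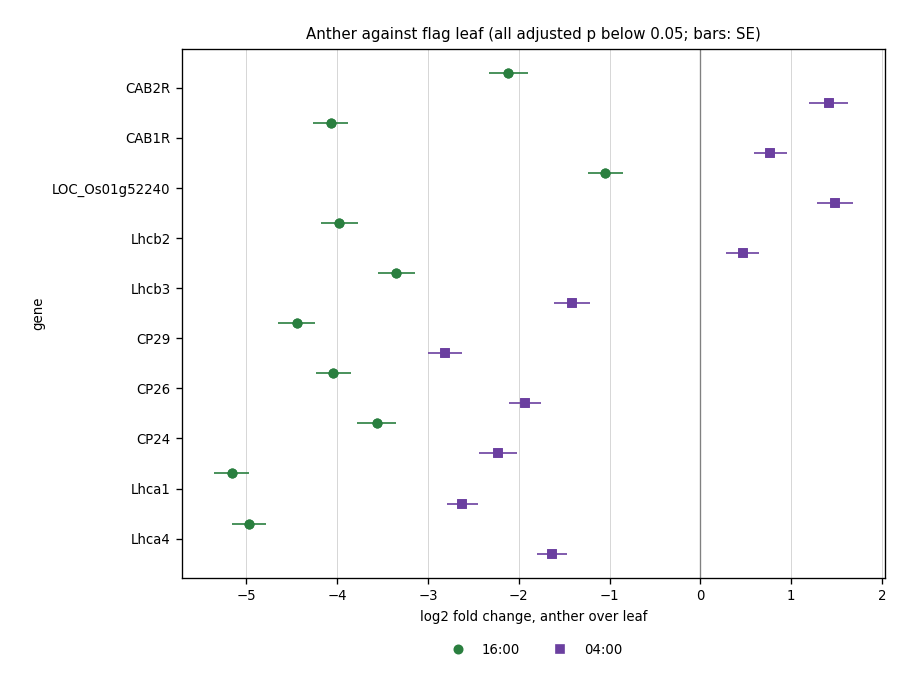
Log2 fold change of anther over flag leaf (horizontal axis, bars are SE) for the 10 light-harvesting genes at 16:00 (circles) and 04:00 (squares), each from 8 anther and 8 leaf libraries. All 16:00 values are negative, between -5.16 and -1.05, and at 04:00 CAB2R, CAB1R, LOC_Os01g52240 and Lhcb2 lie above 0.

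The fold between 16:00 and 04:00 was smaller in anthers than in leaves for 10 of 10 genes, with a difference of -1.34 ± 0.28 (CP24) to -4.84 ± 0.26 (CAB1R) on the log2 scale, beside 26.1% of all genes called in that direction. Photosystem core genes did not share it as a list, with 3 positive and 1 negative call (median -0.10, antenna genes -2.53, all genes -0.02). Averaged over the 2 times, 9 of 10 genes were lower in anthers, beside 9840 of all 26422 genes called lower and 88% called in either direction. LOC_Os01g52240 (0.22 ± 0.14, adjusted p = 0.138) was not called. CAB2R was lower by this average (-0.35 ± 0.15, adjusted p = 0.0301) but above leaves by 0.21 with total count scaling (adjusted p = 0.178), and is therefore uncertain; its call was also lost without any 1 of 12 of the 32 libraries. The median over the 10 genes was -2.64, that of the photosystem core genes -4.03 and that of all genes 0.33. Tissue and deposited table cannot be told apart in this fit.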

How the data were processed

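Total RNA of flag leaves and anthers was sequenced by the authors, who deposited raw read counts per gene in 1 table per tissue; columns were assigned to samples through their labels. The sources used here do not state the aligner, counting program, strand setting, genome build or annotation, and no coordinates or sequences are given. Counts were used as deposited. In edgeR 4.0.16 (R 4.3.3), filterByExpr over the groups chose the genes to test, libraries were scaled by TMM, and contrasts of group means were tested with trended dispersions and the quasi-likelihood F-test. Each tissue was fitted by itself with all its groups, which share 1 estimate of the spread (residual degrees of freedom 24 in leaves and 8 in anthers), and anthers and leaves of 16:00 and 04:00 were also fitted together. Rhythm was tested with a cosine and a sine term of 24 h. Benjamini-Hochberg adjustment covered all genes of a contrast, with a threshold of 0.05. Log2 fold changes are given with their standard error. Likeness of pattern used log2 CPM with a prior count of 2. Floors cover counting error only, because no source names molecular identifiers for the reads.

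The 10 genes and the pathway and marker lists were chosen, and the lists' identifiers written from memory, with earlier results of these data known. Of 64 listed genes, 38 were not found by symbol in the RefSeq reference (assembly ASM3414082v1), among them 7 of the 10 genes and the 6 other antenna genes. The symbol of 1 photosystem core gene was found only on another chromosome. The other 25, among them 3 of the 10 genes, had their symbol on the chromosome of the identifier. In text, all 10 genes are named, with up to 4 such pathway genes of lowest p per comparison, the 5 genes most alike in pattern, and CSA. The genotype by photoperiod contrast in leaves, the comparisons of anther with leaf at single times, and in anthers the genotype contrasts in LD and the photoperiod contrasts at single times, with their differences between times, were added after seeing the data. Values of single pathway genes and the genotype markers were likewise chosen after their values were seen.

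Replicate numbers did not pair libraries within a tissue: over 276 pairs of leaf groups the correlation of replicate differences was -0.258 to 0.231 (30 above 0.1, 19 below -0.1), and over 28 pairs of anther groups -0.311 to 0.332 (7 above, 7 below). Pairing of anthers with flag leaves of the same tillers was not checked, and the joint fit takes their libraries as independent. Replicates were not duplicates, with a chi-square per gene of at least 6.56 in leaves and 8.26 in anthers. Alternatives were RLE and total count scaling, no filter, the replicate block, DESeq2 1.42.0, leaving out the SD 12:00 leaf libraries, and leaving out each library in turn (96 refits).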

Additional observations from a re-analysis of the deposited data

Results flagged for a closer look

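In 3 of 160 groups of 4 libraries tested, 1 library stood apart from the other 3 of its time and photoperiod, where chance flags about 1 group in 20. LOC_Os01g52240 was at 358 CPM in csa SD 16:00 leaf replicate 1, against 189 to 207 CPM in the others. Lhcb3 was at 1749 CPM in csa LD 12:00 leaf replicate 1, against 2244 to 2334 CPM. Lhca4 was at 9087 CPM in WT SD 08:00 leaf replicate 1, against 6486 to 6839 CPM.

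The genotype effect (csa over WT) in SD anthers differed between 16:00 and 04:00 by a test of the difference, on the log2 scale, by -1.41 for CAB2R, -1.35 for CAB1R, -1.41 for LOC_Os01g52240, -1.93 for Lhcb2, -1.14 for CP29, -2.24 for CP24, -1.79 for Lhca1 and -1.58 for Lhca4. The photoperiod effect (SD over LD) in WT anthers differed between 16:00 and 04:00 by 2.23 for CAB2R, 2.63 for CAB1R, 2.54 for LOC_Os01g52240, 3.36 for Lhcb2, 2.31 for Lhcb3, 1.75 for CP29, 1.77 for CP26, 3.03 for CP24, 2.13 for Lhca1 and 2.37 for Lhca4.

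The fold between 16:00 and 04:00 differed between anthers and leaves by -3.53 for CAB2R, -4.84 for CAB1R, -2.53 for LOC_Os01g52240, -4.44 for Lhcb2, -1.93 for Lhcb3, -1.64 for CP29, -2.11 for CP26, -1.34 for CP24, -2.54 for Lhca1 and -3.34 for Lhca4 (log2). The fitted leaf rhythm of Lhcb2 differed between SD and LD, with a swing of 2.84 in the difference (log2, trough to peak).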

How the results depend on the processing

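Counts of the 10 genes called are compared here with those under each alternative. With total count scaling the day length count in leaves at 08:00 was 4 in place of 2, the count for a different rhythm 2 in place of 1, csa against WT in LD anthers at 04:00 8 in place of 5, and SD against LD in WT anthers at 04:00 4 in place of 7; RLE scaling moved the csa count in LD anthers at 04:00 to 3. With no filter on low counts the leaf counts were 6 at 08:00, 7 at 00:00 (4), 10 for csa in LD (2), 4 for genotype by photoperiod (0) and 10 for rhythm. In anthers, without the filter, they were 1 for genotype by photoperiod (0), 4 for csa in SD at 16:00 (0), 5 for SD against LD in csa (1) and 4 in WT (1), and for csa in LD 3 at 16:00 (0) and 10 at 04:00. For SD against LD in csa they were 9 at 16:00 (5), 5 at 04:00 (0) and 10 for the difference of these (0). With the replicate number as a block, csa against WT in LD gave 6 in leaves and 1 in anthers at 04:00, and no other count moved by over 1.5 times; since the numbers do not pair the libraries, this is a change of the fit only. DESeq2 gave 7 for csa in LD leaves, 1 for csa in SD anthers at 16:00, 2 for SD against LD in csa, 8 for csa in LD at 04:00, 8 for SD against LD in csa at 16:00 and 6 for photoperiod by time in csa (0). Without the SD 12:00 leaf libraries the rhythm count was 5. The direction of 1 called value changed: CAB2R in anthers against leaves was 0.21 with total count scaling, and its main value was -0.35. Of the values called in neither fit, 15 changed sign with another setting.

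Leaving out 1 library at a time, the leaf counts ran from 2 to 4 at 08:00, 2 to 7 at 12:00, 3 to 7 at 00:00, 2 to 9 for csa in LD, 0 to 2 for genotype by photoperiod and 1 to 2 for rhythm. The anther counts ran from 0 to 10 for csa in LD, 0 to 1 for csa in SD at 16:00, 4 to 9 for genotype by time in SD, 0 to 2 for SD against LD in csa and 0 to 5 in WT, 0 to 8 and 0 to 10 for csa in LD at 16:00 and 04:00, 1 to 8 for SD against LD in csa at 16:00, 0 to 2 for photoperiod by time in csa, and 3 to 10 and 3 to 7 for SD against LD in WT at 16:00 and 04:00.

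Over all genes, total count scaling moved the median log2 change to -0.54 and -0.55 at dawn, 0.26 and 0.32 at dusk and 0.88 for anther against leaf. Counts over all genes moved most for SD against LD in csa anthers at 04:00 (35 with TMM, 2 with the block, 1542 by DESeq2 and 2464 with no filter) and for photoperiod by time in csa (49, 27, 436 and 1013). For leaf csa against WT they were 109 in SD (506 with no filter, 271 without the SD 12:00 libraries, 194 by DESeq2) and 756 in LD (1661 with total counts, 1515 with no filter, 1136 by DESeq2), and for leaf genotype by photoperiod 65 (648 with no filter, 244 by DESeq2).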
